A study of Fagopyrum tataricum with 12 samples.

Results

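The branched-chain amino acid degradation genes of Tartary buckwheat (Fagopyrum tataricum) were the 67 of 26750 genes in the deposited count table whose pathway annotation holds the text 'Valine, leucine and isoleucine degradation'. They lay on all 8 chromosomes, as read from their identifiers, and 51 carried a gene symbol. The annotation placed 5 of them in this pathway alone and 62 in further pathways as well, so several enzymes are shared with fatty acid, mevalonate or general aldehyde metabolism. By their descriptions 39 products are mitochondrial, 7 chloroplastic, 4 peroxisomal and 2 cytosolic, and 15 descriptions name no compartment.

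Leucine, isoleucine and valine are broken down mainly in mitochondria. A branched-chain aminotransferase first moves the amino group to 2-oxoglutarate, and the keto acid dehydrogenase complex then splits off carbon dioxide and joins the rest to coenzyme A. Acyl-CoA dehydrogenases oxidise that product and pass the electrons through the electron transfer flavoprotein to ubiquinone, after which separate branches end in acetyl-CoA, acetoacetate or propionyl-CoA. In Arabidopsis the pathway is known for feeding mitochondrial respiration with electrons when carbohydrate is short, in darkness or under drought.

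The libraries came from leaf and stem of cultivar Dingku1, grown under long days to the 2-leaf stage. The PEG course is described for hydroponic seedlings; the protocol also mentions plants in soil kept short of water, which no library label names. Control seedlings stood in Hoagland's nutrient solution and were taken at 0 h, and the others were placed in 20% PEG-6000, a polymer used to withhold water osmotically, for 2, 4 or 8 h. Each of the 4 groups held 3 libraries. No transgene, mutation or further agent is named for any group, and plants kept in nutrient solution for 2, 4 or 8 h are not among the libraries, so the time spent in PEG and the hour of the day cannot be told apart. No label states that replicate libraries come from separate plants, and p-values then measure only the spread between these libraries, which may be technical. In RNA from whole organs, fewer cells of a type and less RNA per cell cannot be told apart.

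Library totals were 30468104 to 37395814 counted reads, and the edgeR quasi-likelihood test was run on 22063 genes that passed the filter on low counts. Levels are given as CPM (counts scaled to a common library size by TMM) and changes as log2 fold changes from the edgeR fit ± SE. The SE was worked back from the test, as the size of the log2 change over the square root of the quasi-likelihood F statistic. A gene was called when its Benjamini-Hochberg adjusted p over all tested genes was below 0.05. Markers fitted the labelled organs: 19 genes for chlorophyll a-b binding proteins and the Rubisco small chain summed to 61052, 35428, 27762 and 8071 CPM at 0, 2, 4 and 8 h, and 13 secondary wall genes of stem to 68.1, 71.6, 65.4 and 176 CPM. Root markers (4 genes) summed to at most 2.07 CPM in the group means, and 7 seed storage protein genes to 30.4, 28.5, 35.8 and 122 CPM. The leaf sum was lower at each later time and the stem sum highest at 8 h; the part of either in the changes below was not tested.

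At 4 h and at 8 h most tested genes of the pathway were higher in PEG than at 0 h. With TMM scaling their median change was largest at 4 h. That order rests on the scaling, since the median change of members from 4 h to 8 h turned slightly positive without TMM, as given in the closing section. Of the 63 members tested, 30 were higher and 13 lower at 2 h than at 0 h, while 63.2% of all tested genes were called at that time (31.6% higher, 31.7% lower). At 4 h 40 members were higher and 12 lower against 72.8% of all genes called (35.1% higher, 37.7% lower), and at 8 h 36 were higher and 14 lower against 70.9% (36.4% higher, 34.5% lower). The share of members called in either direction was 68.3%, 82.5% and 79.4% at 2, 4 and 8 h, and the share called higher was 47.6%, 63.5% and 57.1%. The median change of the 63 was 0.11, 0.42 and 0.29 on the log2 scale at 2, 4 and 8 h, beside 0.00, -0.04 and 0.03 over all tested genes. All 3 comparisons use the same control libraries, so their counts are given side by side only.

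Rises of at least 2-fold were found for 7, 21 and 14 members at 2, 4 and 8 h (9.83%, 12.9% and 12.2% of all genes), and falls of that size for 1, 7 and 7 (8.76%, 14.1% and 14.8%). The summed level of the 67 genes was 3625 ± 45.4, 4558 ± 42.2, 7314 ± 70.0 and 4643 ± 36.3 CPM at 0, 2, 4 and 8 h (SD, n = 3). As deposited FPKM, scaled to coding length and library total, the sum was 2300 ± 15.1, 3026 ± 38.4, 4666 ± 30.4 and 3501 ± 14.9. Both sums were highest at 4 h, but the FPKM sum at 8 h stood further above that of 2 h. Between neighbouring times, 36 members were higher and 13 lower at 4 h than at 2 h (53.2% of all genes called, 26.3% higher and 26.9% lower), the 13 lower being 8 without 4 h replicate 1. At 8 h 20 were higher and 32 lower than at 4 h (65.5% of all genes, 33.8% higher and 31.7% lower). That last split depended on scaling: with library-size scaling in place of TMM it was 27 higher and 24 lower. That scaling moved the median of all genes to -0.10 at 4 h and 0.18 at 8 h against 0 h, and to 0.26 between 8 and 4 h. Between 8 h and 2 h 27 members were higher and 22 lower (63.3% of all genes called, 31.3% higher and 32% lower). Changes of at least 2-fold were called for 11 members up and 3 down at 4 h against 2 h (4.15% and 4.39% of all genes), for 6 up and 13 down at 8 h against 4 h (7.62% and 9.97%), and for 6 up and 8 down at 8 h against 2 h (7.4% and 11.3%). The highest mean fell at 4 h for 28 of 63 members (22.9% of all genes), at 8 h for 21 (29.9%), at 0 h for 10 (33.2%) and at 2 h for 4 (14.0%). A rise at 4 h over both 0 h and 2 h followed by a fall at 8 h relative to 4 h was called for 24 of 63 members (12.7% of all genes), 22 were higher at all 3 times than at 0 h (19.2%), and 6 were lower at all 3 (21.4%). These counts and those of the highest mean use TMM values and were not recounted under other scaling. The fall from 4 h to 8 h that the first pattern needs was called for 32 members with TMM and 24 with library-size scaling. Over the 4 groups together 62 of 63 members differed, beside 88.7% of all genes.

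**Figure D1:**
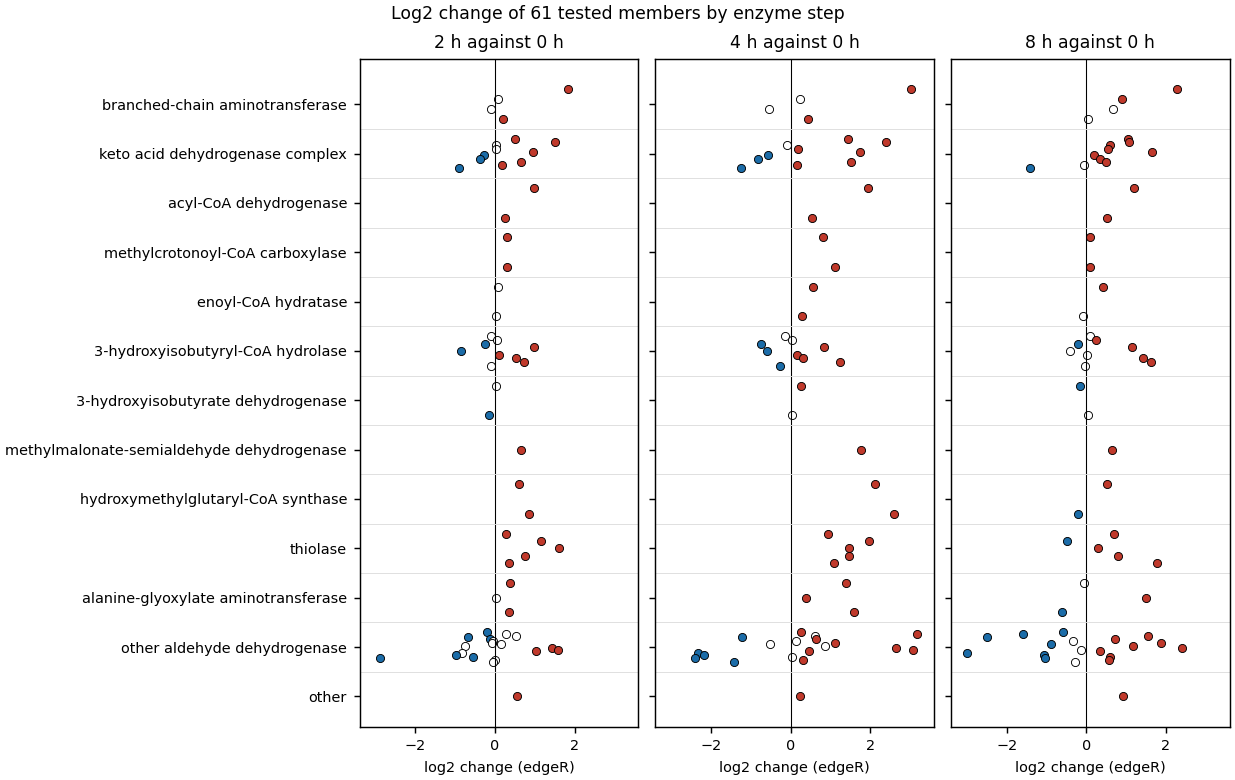
Log2 change against 0 h (horizontal axis) of 61 tested genes, sorted by enzyme step down the page, with a panel each for 2, 4 and 8 h; each point is 1 gene, red where called higher, blue where called lower and white where not called. At 4 h 39 points are red and 11 blue, and the points furthest to either side belong to the aldehyde dehydrogenases.

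Members were also split by their mean at 0 h, a split chosen after the data were seen. Of 46 members at 10 CPM or more, 34 were higher and 7 lower at 4 h (median log2 change 0.51), beside 38.6% higher and 43.2% lower of all genes at that level. Of the 17 tested members under 10 CPM, 6 were higher and 5 lower (median 0.24), beside 30.5% and 30.4%; the 4 untested members also lie there. By described compartment, 20 of 36 tested mitochondrial members were higher (55.6%) and 9 lower (25%) at 4 h, beside 35.1% and 37.7% of all tested genes. All 4 peroxisomal members were higher at that time, as were both cytosolic ones. Of the 7 chloroplastic members 3 were higher (42.9%) and 2 lower (28.6%). The counts were also made without the class of 20 further aldehyde dehydrogenases, which moved both ways. Neither this subset nor the grouping by compartment was set in advance. Without that class, 27, 32 and 28 of the other 45 tested members were higher at 2, 4 and 8 h (60%, 71.1% and 62.2%). Of these 45 members, 7 were lower at each time (15.6%). The shares over all tested genes were 31.6%, 35.1% and 36.4% higher and 31.7%, 37.7% and 34.5% lower.

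Of the 4 branched-chain aminotransferases, which start the pathway in mitochondria or close branched-chain amino acid synthesis in chloroplasts, 1 rose at every time (19.2% of all tested genes). The BCAT2 gene evm.TU.Ft2.5992, described as chloroplastic, had 35.2, 43.2 and 39.7 CPM at 0 h and 144, 142 and 139 CPM at 2 h. After 4 h in PEG it had 328, 323 and 317 CPM, and after 8 h 195, 189.6 and 184 CPM. No groups overlapped, and the level was highest at 4 h. The change was 1.85 ± 0.0483, 3.04 ± 0.0486 and 2.27 ± 0.0482 on the log2 scale at 2, 4 and 8 h (edgeR adjusted p = 2.45e-29, 8.78e-37 and 7.47e-33), or 8.20-fold at 4 h. It was the largest rise of any member at 2 h.

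The other aminotransferases moved less. BCAT2 evm.TU.Ft8.3084 averaged 59.9 ± 1.87, 68.9 ± 0.875, 80.4 ± 3.05 and 61.8 ± 1.86 CPM at 0, 2, 4 and 8 h. It rose by 0.20 at 2 h and 0.42 at 4 h on the log2 scale, with 0.04 at 8 h (edgeR adjusted p = 0.390). At 8 h library-size scaling (0.195) and 3 limma settings on FPKM (0.191 to 0.195) gave a call. BCAT2 evm.TU.Ft5.1488 and BCAT1 evm.TU.Ft5.1489, neighbours in the gene numbering of chromosome 5, were both low. The BCAT2 gene of that pair averaged 1.98 ± 0.265, 2.07 ± 0.357, 2.3329 ± 0.521 and 3.67 ± 0.455 CPM at 0, 2, 4 and 8 h and rose at 8 h only among the PEG times (log2 change 0.89 ± 0.202, edgeR adjusted p = 1.69e-04). BCAT1, the one described as mitochondrial, averaged 0.292 ± 0.105, 0.276 ± 0.124, 0.200 ± 0.0227 and 0.470 ± 0.163 CPM at 0, 2, 4 and 8 h, with overlapping libraries and no call against 0 h at any time. Summed over the 4 genes, the level was 102 ± 4.25, 213 ± 2.77, 406 ± 5.57 and 255 ± 4.03 CPM at 0, 2, 4 and 8 h. In CPM, which is not scaled to coding length, evm.TU.Ft8.3084 had the largest part of that sum at 0 h and evm.TU.Ft2.5992 at each PEG time.

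The keto acid dehydrogenase complex joins a decarboxylase of alpha and beta subunits (E1), a lipoamide acyltransferase (E2) and dihydrolipoyl dehydrogenase (E3). Of the 10 genes placed in this step by description, 5, 6 and 8 were higher (50%, 60% and 80%) and 3, 3 and 1 lower (30%, 30% and 10%) at 2, 4 and 8 h. The shares over all tested genes were 31.6%, 35.1% and 36.4% higher and 31.7%, 37.7% and 34.5% lower. The E1 alpha gene evm.TU.Ft4.4651 had 72.1, 75.9 and 72.8 CPM at 0 h and 212, 210.3 and 203 CPM at 2 h. Later values were 395, 392.34 and 379.7 CPM at 4 h and 156, 155 and 152 CPM at 8 h. Every group stood apart from the others, with 4 h on top. It rose 2.83-fold at 2 h, 5.29-fold at 4 h and 2.10-fold at 8 h (edgeR adjusted p = 6.67e-30, 6.63e-37 and 2.37e-25).

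The beta subunit gene BCDH, evm.TU.Ft2.2029, had 182, 182 and 182 CPM at 0 h and 263, 259.8 and 254 CPM at 2 h. Libraries of 4 h gave 506, 493 and 492 CPM, and those of 8 h gave 381, 381 and 370.2 CPM. Its groups did not overlap, and the log2 change was 0.51 ± 0.0339, 1.45 ± 0.0340 and 1.05 ± 0.0339 at 2, 4 and 8 h (edgeR adjusted p = 2.84e-16, 2.91e-31 and 9.73e-27). The E2 gene BCE2, evm.TU.Ft7.5142, had 122, 129 and 128 CPM at 0 h and 193, 200.2 and 199 CPM at 2 h. Next, the 4 h libraries had 368, 355 and 362 CPM and those of 8 h 181, 178 and 176 CPM. Here too no groups overlapped, and the log2 change was 0.64 ± 0.0364, 1.52 ± 0.0365 and 0.50 ± 0.0365 (edgeR adjusted p = 1.93e-18, 5.99e-31 and 3.39e-15). Each of these E1 and E2 genes was lower at 8 h than at 4 h, with log2 changes of -1.33 for E1 alpha, -0.40 for BCDH and -1.02 for BCE2; with library-size scaling in place of TMM that of BCDH was -0.18.

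Further genes of the complex, singled out after their values were seen, did not share that course. A second E1 alpha gene, evm.TU.Ft5.2984, averaged 29.2 ± 1.36, 56.9 ± 1.81, 97.5 ± 3.69 and 92.5 ± 4.72 CPM at 0, 2, 4 and 8 h, and its 8 h libraries overlapped those of 4 h. E1 alpha gene evm.TU.Ft7.4833 averaged 4.11 ± 0.439, 3.17 ± 0.379, 2.32 ± 0.433 and 5.24 ± 0.322 CPM at 0, 2, 4 and 8 h and was lower at 4 h (log2 change -0.83 ± 0.170, edgeR adjusted p = 4.33e-05). The second beta subunit gene, DIN4 evm.TU.Ft5.2876, a short gene model of 471 coding bases whose Arabidopsis namesake is known as dark-induced, averaged 15.8 ± 0.142, 16.0 ± 0.873, 17.9 ± 1.28 and 23.1 ± 0.553 CPM at 0, 2, 4 and 8 h and changed by 0.55 on the log2 scale at 8 h (edgeR adjusted p = 1.47e-08). The E3 subunit is shared with other mitochondrial dehydrogenase complexes, and the genes annotated as E3 split. LPD1 evm.TU.Ft7.4512, counted among them, is described as chloroplastic. Mitochondrial LPD evm.TU.Ft8.2112 had 119.5, 116 and 124 CPM at 0 h and 64.1, 62.996 and 64.0 CPM at 2 h. After 4 h in PEG it had 50.7, 51.4 and 49.5 CPM, and after 8 h 43.7, 45.9 and 44.2 CPM. The level was highest at 0 h with no overlap, and it fell by 0.91, 1.25 and 1.43 on the log2 scale (edgeR adjusted p = 3.68e-21, 1.48e-25 and 1.69e-27). The nearby LPD gene evm.TU.Ft8.2109, 3 places before it in the numbering, averaged 69.4 ± 2.83, 78.5 ± 1.19, 77.5 ± 1.47 and 66.4 ± 1.18 CPM at 0, 2, 4 and 8 h, a log2 change of 0.16 at 4 h. Whether these neighbouring LPD genes are near-identical copies is not known, since no sequence was compared. How reads that match such copies were assigned is not given in the sources used here, so a split between such copies would be uncertain.

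**Figure D2:**
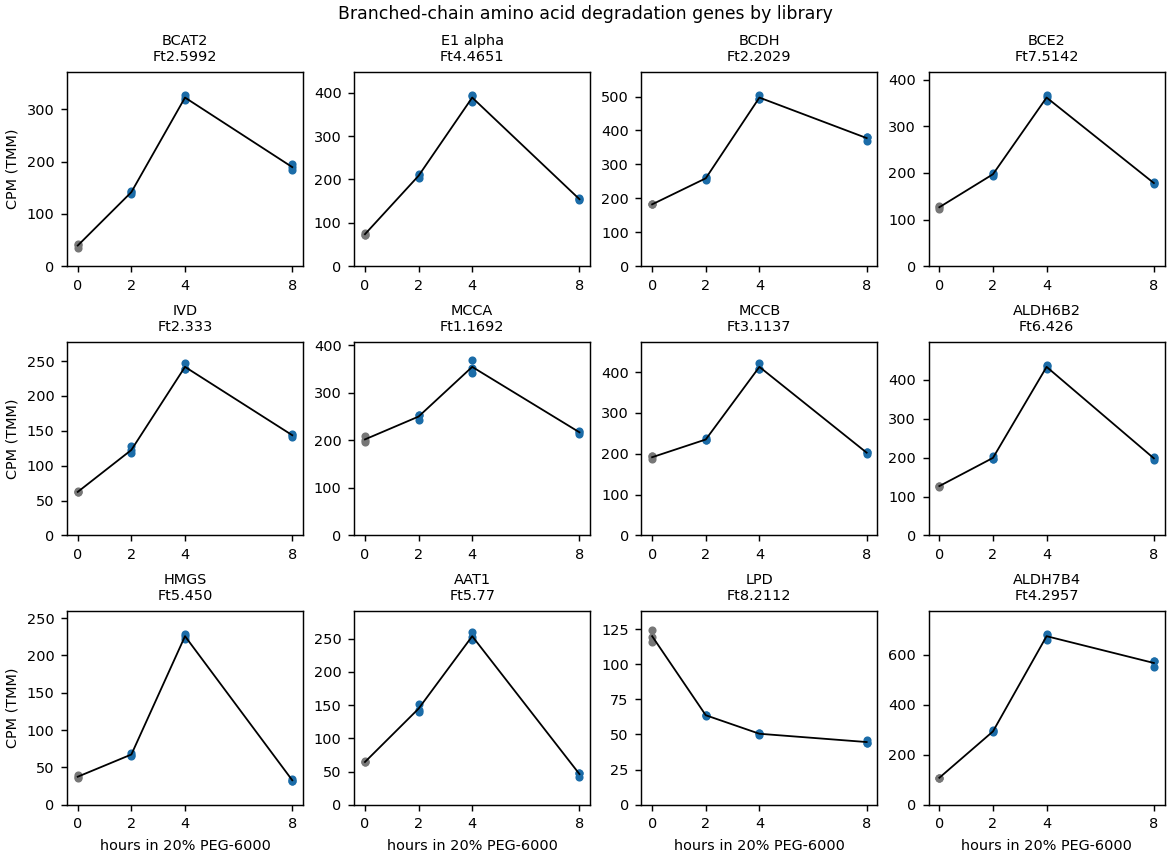
Level in CPM (vertical axis, a scale for each panel) at 0, 2, 4 and 8 h (horizontal axis) for 12 genes of the pathway; points are single libraries (3 per time, blue in PEG and grey in the control) and the line joins the group means. BCAT2 evm.TU.Ft2.5992, the E1 alpha gene evm.TU.Ft4.4651 and IVD stand highest at 4 h, and the libraries of a time lie close together relative to the steps between times.

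Both acyl-CoA dehydrogenases rose at all 3 times (19.2% of all tested genes). IVD, isovaleryl-CoA dehydrogenase of the leucine branch (evm.TU.Ft2.333), had 63.2, 62.4 and 61.6 CPM at 0 h and 122, 128 and 117 CPM at 2 h. Later values were 247, 239 and 239 CPM at 4 h and 146, 144 and 142 CPM at 8 h. The groups did not overlap and 4 h was highest. IVD rose 1.96-fold, 3.87-fold and 2.30-fold at 2, 4 and 8 h (edgeR adjusted p = 8.04e-23, 3.18e-33 and 3.01e-26). IBR3 evm.TU.Ft7.14, a probable acyl-CoA dehydrogenase that in Arabidopsis acts in peroxisomal conversion of indole-3-butyric acid, averaged 61.3 ± 1.84, 73.1 ± 1.21, 89.2 ± 2.90 and 88.5 ± 1.56 CPM at 0, 2, 4 and 8 h. Its 4 h and 8 h libraries overlapped, and the log2 change was 0.54 ± 0.0428 at 4 h and 0.53 ± 0.0426 at 8 h (edgeR adjusted p = 2.57e-14 and 4.58e-14).

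Methylcrotonoyl-CoA carboxylase, the biotin enzyme that follows IVD in leucine breakdown, is built of an alpha and a beta subunit, and the single gene for each was highest at 4 h. MCCA evm.TU.Ft1.1692 averaged 202 ± 6.79, 250.0 ± 5.69, 354 ± 13.6 and 217 ± 2.6019 CPM at 0, 2, 4 and 8 h, and MCCB evm.TU.Ft3.1137 averaged 192 ± 4.81, 235 ± 2.74, 413 ± 8.84 and 203 ± 2.40 CPM at 0, 2, 4 and 8 h. At 4 h the log2 change was 0.81 ± 0.0368 for MCCA and 1.11 ± 0.0349 for MCCB (edgeR adjusted p = 8.83e-22 and 5.05e-27), and no 4 h library overlapped another group. At 8 h both were back near the level of 0 h with TMM scaling, with log2 changes of 0.10 and 0.08 (edgeR adjusted p = 0.0133 and 0.0371). That 8 h call was lost for MCCA without control replicate 1 (log2 change 0.08). For MCCB it was lost without control replicate 1 (log2 change 0.06), 8 h replicate 1 (0.08) or 8 h replicate 3 (0.08). It was also lost with DESeq2 size factors (0.07), without the low-count filter (0.08) and in a fit of the compared libraries alone (0.07). Summed as FPKM, which does not use TMM, MCCA and MCCB together had 231 ± 2.99 at 8 h against 196 ± 5.20 at 0 h, without overlap.

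The valine branch runs through 3-hydroxyisobutyryl-CoA hydrolase, 3-hydroxyisobutyrate dehydrogenase and methylmalonate-semialdehyde dehydrogenase. ALDH6B2 evm.TU.Ft6.426, the single gene for the last of these, had 128, 127 and 126 CPM at 0 h and 198, 205 and 196 CPM at 2 h. Libraries of 4 h gave 435, 428 and 437 CPM, and those of 8 h gave 199, 202 and 195 CPM. The 2 h and 8 h libraries overlapped each other and lay between those of 0 h and 4 h. ALDH6B2 rose 1.57-fold, 3.42-fold and 1.56-fold at 2, 4 and 8 h (edgeR adjusted p = 4.64e-19, 1.42e-33 and 4.09e-19). The dehydrogenase before it moved little: evm.TU.Ft4.3369 averaged 45.1 ± 1.24, 45.8 ± 1.72, 53.5 ± 1.54 and 40.6 ± 0.436 CPM at 0, 2, 4 and 8 h and evm.TU.Ft8.145 28.5 ± 0.786, 25.6 ± 1.52, 29.4 ± 1.08 and 29.5 ± 0.678 CPM at 0, 2, 4 and 8 h. Gene evm.TU.Ft4.3369 had log2 changes of 0.02, 0.25 and -0.15 at 2, 4 and 8 h (edgeR adjusted p = 0.712, 2.41e-05 and 0.00703). With library-size scaling the 8 h change was 0.00098, so its sign rests on the scaling.

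Of the 10 hydrolase or hydrolase-like genes 9 were tested. At 2, 4 and 8 h 4, 4 and 4 were higher (44.4% each) and 2, 3 and 1 lower (22.2%, 33.3% and 11.1%). The shares over all tested genes were 31.6%, 35.1% and 36.4% higher and 31.7%, 37.7% and 34.5% lower. The highest mean fell at 8 h for 5 of the 9 (29.9% of all genes), at 0 h for 3 (33.2%) and at 4 h for 1 (22.9%). Gene evm.TU.Ft7.599 averaged 9.09 ± 0.266, 13.1 ± 0.393, 11.3 ± 1.27 and 24.2 ± 0.776 CPM at 0, 2, 4 and 8 h, and evm.TU.Ft8.66 averaged 2.91 ± 0.957, 4.86 ± 0.631, 6.93 ± 1.09 and 8.94 ± 0.709 CPM at 0, 2, 4 and 8 h. The log2 change at 8 h was 1.41 ± 0.0829 and 1.62 ± 0.162 (edgeR adjusted p = 3.50e-18 and 2.00e-11). Gene evm.TU.Ft3.226 was lowest at 4 h, with 26.0 ± 2.05, 21.9 ± 0.745, 15.5 ± 1.20 and 22.5 ± 0.733 CPM at 0, 2, 4 and 8 h, a log2 change of -0.75 ± 0.0726 at that time (edgeR adjusted p = 7.12e-12). CHY1, whose Arabidopsis product is a peroxisomal hydrolase of valine breakdown, has 2 genes here, described after their values were seen. CHY1 evm.TU.Ft7.1870 averaged 53.1 ± 1.24, 57.1 ± 0.408, 59.0 ± 1.56 and 53.9 ± 0.407 CPM at 0, 2, 4 and 8 h, and CHY1 evm.TU.Ft3.3412 averaged 2.08 ± 0.414, 4.07 ± 0.150, 3.75 ± 0.395 and 4.61 ± 0.601 CPM at 0, 2, 4 and 8 h, a log2 change of 1.1486 ± 0.171 at 8 h (edgeR adjusted p = 1.87e-07). Gene evm.TU.Ft1.2895 was called at no time against 0 h, with means of 15.011 ± 0.893, 13.9 ± 0.983, 13.5 ± 0.379 and 16.1 ± 0.725 CPM at 0, 2, 4 and 8 h. That rests on the processing: it was called lower at 4 h with library-size scaling (log2 change -0.22), a stricter filter (-0.19) and 3 limma settings on FPKM (-0.21 to -0.197), and higher at 8 h with library-size scaling (0.25) and the same limma settings (0.23 to 0.25). Gene evm.TU.Ft8.3922 had a count in a single library at 2 h and in another at 4 h and was not tested.

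Enoyl-CoA hydratases add water to the unsaturated acyl-CoA of the isoleucine and valine branches and also serve fatty acid oxidation. Peroxisomal ECHIA evm.TU.Ft3.2347 averaged 42.9 ± 4.31, 45.6 ± 1.21, 63.6 ± 3.02 and 56.9 ± 0.292 CPM at 0, 2, 4 and 8 h and rose at 4 h by 0.57 and at 8 h by 0.41 on the log2 scale (edgeR adjusted p = 6.34e-12 and 2.15e-08). The mitochondrial gene evm.TU.Ft6.372 averaged 67.7 ± 2.23, 68.9 ± 2.98, 82.4 ± 3.08 and 63.7 ± 1.26 CPM at 0, 2, 4 and 8 h and rose at 4 h alone among the PEG times, by 0.28 (edgeR adjusted p = 5.81e-07); its 2 h libraries overlapped the controls.

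All 5 thiolase genes, which split off acetyl-CoA or join it, were higher at 2 h and at 4 h (31.6% and 35.1% of all tested genes), and 4 of them at 8 h (36.4%). PED1 evm.TU.Ft6.2799, the peroxisomal 3-ketoacyl-CoA thiolase 2 of fatty acid oxidation in Arabidopsis, had 262, 267 and 264 CPM at 0 h and 440.4, 441 and 446 CPM at 2 h. Next, the 4 h libraries had 742, 719.7 and 724 CPM and those of 8 h 454, 457 and 458 CPM. No groups overlapped, with a rise of 1.67-fold, 2.75-fold and 1.73-fold at 2, 4 and 8 h (edgeR adjusted p = 3.85e-22, 4.51e-32 and 2.97e-23). The small difference between 8 h and 2 h (log2 change 0.0445) was not called by edgeR. PED1 evm.TU.Ft7.1411 was highest at 8 h, with 21.7 ± 0.901, 27.5 ± 2.31, 46.2 ± 2.41 and 74.5 ± 1.92 CPM at 0, 2, 4 and 8 h and a log2 change of 1.78 ± 0.0579 at 8 h (edgeR adjusted p = 1.37e-26). KAT1 evm.TU.Ft6.1621, another peroxisomal thiolase, picked here after its values were seen, had its highest mean at 2 h, where libraries overlapped those of 4 h, with 7.81 ± 0.750, 24.0 ± 0.995, 21.7 ± 2.82 and 9.56 ± 0.788 CPM at 0, 2, 4 and 8 h. The 8 h call of KAT1 had a log2 change of 0.29 ± 0.0991 (edgeR adjusted p = 0.00993).

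Cytosolic acetyl-CoA acetyltransferase and hydroxymethylglutaryl-CoA synthase, the opening enzymes of mevalonate synthesis, had their highest means at 4 h. AAT1 evm.TU.Ft5.77 had 63.8, 64.0 and 65.3 CPM at 0 h and 143, 151 and 139.7 CPM at 2 h. After 4 h in PEG it had 249, 259 and 253 CPM, and after 8 h 47.8, 42.3 and 48.2 CPM. The 4 h libraries were highest and the 8 h libraries lowest, below the controls with no overlap. The log2 change was 1.1685 ± 0.0439, 1.98 ± 0.0439 and -0.48 ± 0.0464 at 2, 4 and 8 h (edgeR adjusted p = 3.54e-24, 4.07e-32 and 8.32e-12). HMGS evm.TU.Ft5.450 had 40.1, 35.6 and 36.7 CPM at 0 h and 65.3, 69.9 and 66.6 CPM at 2 h. Later values were 222, 226 and 229 CPM at 4 h and 31.9, 34.3 and 32.0 CPM at 8 h. Its order was the same, 4 h on top and 8 h at the bottom, and it rose 6.02-fold at 4 h (edgeR adjusted p = 3.59e-35), with a log2 change of -0.20 ± 0.05002 at 8 h (edgeR adjusted p = 6.59e-04). The 8 h call of HMGS evm.TU.Ft5.450 was lost with library-size scaling (log2 change -0.0457, edgeR adjusted p = 0.420) and in 3 limma settings on FPKM (-0.0431 to -0.0417). HMGS evm.TU.Ft1.1938 averaged 23.6 ± 1.01, 35.9 ± 0.434, 102 ± 1.13 and 33.7 ± 2.23 CPM at 0, 2, 4 and 8 h and rose 4.33-fold at 4 h (edgeR adjusted p = 1.65e-30). A short HMGS gene model, evm.TU.Ft7.2064, had at most 11 counts in a library and was below the count filter. AAT1 evm.TU.Ft1.2934, a gene outside the naming rule, averaged 41.5 ± 1.25, 50.4 ± 3.08, 79.5 ± 2.96 and 66.9 ± 3.34 CPM at 0, 2, 4 and 8 h.

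The 3 alanine-glyoxylate aminotransferase 2 homologs, described as mitochondrial enzymes that move the amino group of alanine to glyoxylate, differed in the time of their peak. AGT2 evm.TU.Ft1.1086 had 69.6, 69.4 and 67.3 CPM at 0 h and 88.5, 91.0 and 89.5 CPM at 2 h. Libraries of 4 h gave 183, 182 and 175 CPM, and those of 8 h gave 64.4, 65.1 and 67.8 CPM. The 4 h libraries stood far above the rest, and those of 8 h and 0 h overlapped. AGT2 evm.TU.Ft1.1086 rose 2.62-fold at 4 h (edgeR adjusted p = 2.83e-28), with a log2 change of -0.06 ± 0.0413 at 8 h (edgeR adjusted p = 0.164). AGT2 evm.TU.Ft2.4892 averaged 8.05 ± 0.615, 10.4 ± 0.805, 24.3 ± 1.31 and 5.30 ± 0.859 CPM at 0, 2, 4 and 8 h, and its 8 h libraries lay below the controls (log2 change -0.60 ± 0.109, edgeR adjusted p = 7.30e-06). The homolog evm.TU.Ft2.4634 averaged 25.4 ± 0.960, 25.8 ± 1.62, 33.4 ± 1.55 and 72.2 ± 4.01 CPM at 0, 2, 4 and 8 h instead, a 2.84-fold rise at 8 h (edgeR adjusted p = 2.29e-24).

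The largest class was 20 aldehyde dehydrogenases other than ALDH6B2, which oxidise aldehydes of many origins, and it moved both ways. Of the 18 tested, 3, 8 and 8 were higher (16.7%, 44.4% and 44.4%) and 6, 5 and 7 lower (33.3%, 27.8% and 38.9%) at 2, 4 and 8 h. The shares over all tested genes were 31.6%, 35.1% and 36.4% higher and 31.7%, 37.7% and 34.5% lower. ALDH7B4 evm.TU.Ft4.2957, of the turgor-responsive aldehyde dehydrogenase family known in Arabidopsis for its response to drought and salt, had 108, 109 and 107 CPM at 0 h and 293, 289 and 297 CPM at 2 h. Next, the 4 h libraries had 683, 678 and 659.7 CPM and those of 8 h 573, 573 and 552 CPM. No groups overlapped, and the 8 h level stayed above that of 2 h. The fall from 4 h to 8 h, a log2 change of -0.25 with TMM, rests on the scaling. With library-size scaling and in 3 limma settings on FPKM it was -0.03 and not called. ALDH7B4 rose 2.72-fold, 6.26-fold and 5.26-fold at 2, 4 and 8 h (edgeR adjusted p = 1.60e-30, 3.02e-39 and 3.37e-38), the largest rise of any member at 8 h.

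ALDH2B4 evm.TU.Ft2.3849, a mitochondrial family 2 enzyme, had 657, 695 and 734 CPM at 0 h and 457, 421 and 424 CPM at 2 h. After 4 h in PEG it had 308, 297 and 291 CPM, and after 8 h 119.8, 126 and 123 CPM. Each later time was lower than the one before with no overlap. Its log2 change was -0.68 ± 0.0386, -1.22 ± 0.0392 and -2.50 ± 0.0414 (edgeR adjusted p = 2.13e-18, 1.04e-26 and 1.68e-36), which is 5.66-fold lower at 8 h. ALDH3H1 evm.TU.Ft4.5705, a family 3 enzyme, had 17.5, 17.4 and 19.0 CPM at 0 h and 50.9, 55.0 and 54.9 CPM at 2 h. Later values were 156, 149 and 150.4 CPM at 4 h and 16.9, 15.9 and 16.5 CPM at 8 h. It was highest at 4 h, 8.47-fold above 0 h (edgeR adjusted p = 3.72e-36), and its 8 h libraries lay just below those of 0 h without a call (log2 change -0.12 ± 0.0592, edgeR adjusted p = 0.0613); that call was gained with DESeq2 size factors in edgeR (log2 change -0.14), with DESeq2's own test (-0.14), without control replicate 2 (-0.15) and without 2 h replicate 1 (-0.12).

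The highest change at 4 h and the lowest at 2, 4 and 8 h belonged to genes of lower level. BALDH evm.TU.Ft1.218, annotated as a mitochondrial benzaldehyde dehydrogenase, had 3.98, 3.53 and 2.88 CPM at 0 h and 2.98, 3.73 and 5.78 CPM at 2 h. Libraries of 4 h gave 30.2, 31.5 and 32.4 CPM, and those of 8 h gave 1.12, 1.1728 and 1.1473 CPM. Only its 4 h libraries were high, with a 9.04-fold rise at 4 h, the largest of any member at that time, and a log2 change of -1.59 ± 0.194 at 8 h (edgeR adjusted p = 5.63e-23 and 2.57e-09). ALDH3F1 evm.TU.Ft8.3901 had 12.6, 11.5 and 12.5 CPM at 0 h and 1.89, 1.47 and 1.58 CPM at 2 h. Next, the 4 h libraries had 2.42, 2.64 and 1.81 CPM and those of 8 h 5.49, 6.20 and 6.10 CPM. The control was highest and the 2 h and 4 h libraries overlapped, with a log2 change of -2.88 ± 0.146, -2.41 ± 0.141 and -1.04 ± 0.124 (edgeR adjusted p = 5.81e-20, 2.84e-18 and 1.45e-09), the lowest of any member at 2 h and at 4 h. The lowest change at 8 h was that of BALDH evm.TU.Ft6.1403, a gene model of 300 coding bases with at most 1.11 CPM in a library (log2 change -2.99 ± 0.526, edgeR adjusted p = 4.18e-06). ALDH2B4 evm.TU.Ft2.5709 had no call against 0 h, with means of 3.85 ± 0.608, 3.71 ± 0.414, 4.22 ± 0.194 and 3.05 ± 0.219 CPM at 0, 2, 4 and 8 h; its 8 h change of -0.34 (edgeR adjusted p = 0.0585) became a call with DESeq2 size factors (-0.35) and without control replicate 1 (-0.45). BALDH evm.TU.Ft6.3031 and ALDH2B7 evm.TU.Ft7.2134 were below the count filter. AAE13 evm.TU.Ft3.2008, a malonate-CoA ligase placed in no other step, averaged 19.1 ± 3.16, 28.3 ± 2.94, 22.6 ± 0.356 and 36.3 ± 1.02 CPM at 0, 2, 4 and 8 h and rose by 0.57 at 2 h and 0.93 at 8 h on the log2 scale (edgeR adjusted p = 8.74e-08 and 2.42e-13), while its call at 4 h (log2 change 0.24, edgeR adjusted p = 0.00869) was lost without control replicate 1 (log2 change 0.13), with library-size scaling (0.18) and in 3 limma settings (0.17 to 0.19).

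Levels of different genes can be set side by side only per length, as deposited FPKM (counts scaled to coding length and library total). ALDH2B4 evm.TU.Ft2.3849 had the highest FPKM of the 67 genes at 0 h, and its mean was 129 ± 3.5047 FPKM at 4 h against 314 ± 15.8 FPKM at 0 h (SD, n = 3). BCDH came next with 426 ± 5.58 FPKM at 4 h against 163 ± 0.882 FPKM at 0 h, followed by PED1 evm.TU.Ft6.2799 with 379 ± 5.46 FPKM at 4 h against 144 ± 1.73 FPKM at 0 h. MCCB had 218 ± 4.22 FPKM at 4 h against 106 ± 2.39 FPKM at 0 h, MCCA 151 ± 5.38 FPKM at 4 h against 89.8 ± 3.14 FPKM at 0 h, BCE2 222 ± 3.84 FPKM at 4 h against 81.2 ± 2.29 FPKM at 0 h and ALDH6B2 253 ± 3.14 FPKM at 4 h against 77.5 ± 1.02 FPKM at 0 h. ALDH7B4 had 414 ± 6.38 FPKM at 4 h against 69.2 ± 0.999 FPKM at 0 h. E1 alpha evm.TU.Ft4.4651 had 257 ± 4.75 FPKM at 4 h against 50.9 ± 1.5041 FPKM at 0 h, and BCAT2 evm.TU.Ft2.5992 259 ± 3.69 FPKM at 4 h against 33.1 ± 3.39 FPKM at 0 h. By these means ALDH2B4 was above the listed genes at 0 h, while at 4 h it was below the 9 others.

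**Figure D3:**
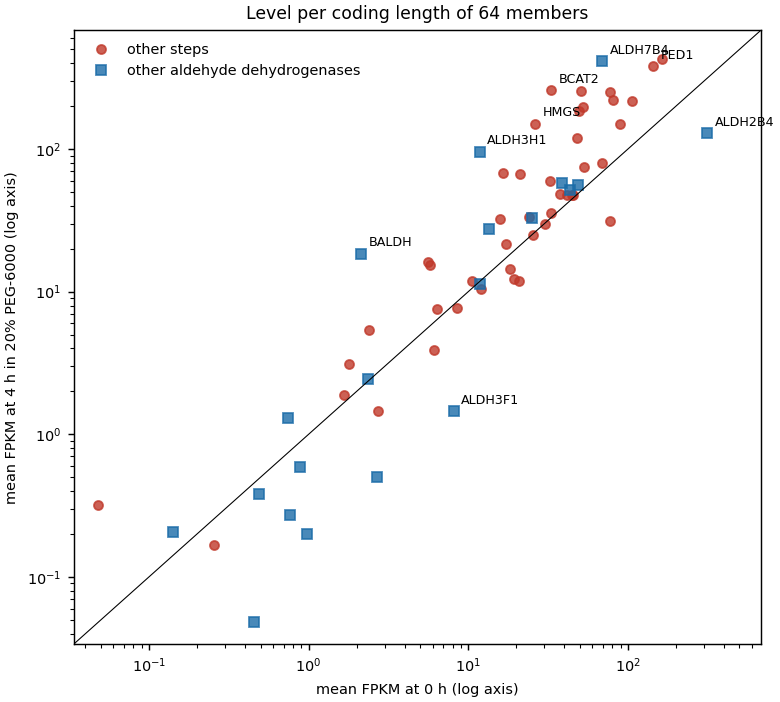
Mean FPKM at 4 h (vertical axis) against mean FPKM at 0 h (horizontal axis), both on log10 axes, for 64 of the genes (a gene listed at 0 cannot be drawn on a log axis); the diagonal marks equal levels. ALDH7B4 and BCAT2 evm.TU.Ft2.5992 lie above the diagonal and ALDH2B4 evm.TU.Ft2.3849 below it.

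Genes around the electron transfer flavoprotein, which takes electrons from acyl-CoA dehydrogenases and from D-2-hydroxyglutarate dehydrogenase, were higher at all 3 times (19.2% of all tested genes). The 4 genes, electron transfer flavoprotein subunits ETFA and ETFB, its ubiquinone oxidoreductase ETFQO and D-2-hydroxyglutarate dehydrogenase (D2HGDH), an electron donor to it, were each called higher at 2, 4 and 8 h, with a median log2 change of 0.80, 1.91 and 1.05. ETFQO evm.TU.Ft7.998 had 33.4, 34.1 and 35.2 CPM at 0 h and 79.1, 80.5 and 78.6 CPM at 2 h. After 4 h in PEG it had 156, 152 and 149.9 CPM, and after 8 h 111, 114 and 105 CPM. No groups overlapped, with 4 h on top, and it rose 4.46-fold at 4 h (edgeR adjusted p = 2.17e-33). ETFB evm.TU.Ft7.5074 averaged 28.1 ± 1.00, 47.7 ± 2.10, 116 ± 5.50 and 61.5 ± 1.16 CPM at 0, 2, 4 and 8 h and rose 4.15-fold at 4 h (edgeR adjusted p = 6.07e-31). LKR/SDH evm.TU.Ft6.2704, the bifunctional enzyme that opens lysine breakdown, averaged 509 ± 18.2, 829 ± 22.1, 1536 ± 27.3 and 1167 ± 10.2 CPM at 0, 2, 4 and 8 h and rose 3.02-fold at 4 h (edgeR adjusted p = 5.49e-33).

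Among 14 genes for the breakdown of other amino acids (glutamate, proline, methionine, threonine and tyrosine) 13 were tested, with 9, 8 and 8 higher and 1, 1 and 3 lower at 2, 4 and 8 h. For this list and those below, the shares over all tested genes were 31.6%, 35.1% and 36.4% higher and 31.7%, 37.7% and 34.5% lower. GDH1 evm.TU.Ft7.4034, a glutamate dehydrogenase that releases ammonium from glutamate, had 67.8, 75.3 and 73.2 CPM at 0 h and 343, 362 and 338 CPM at 2 h. Later values were 1079.6, 1102 and 1103 CPM at 4 h and 315, 296 and 307 CPM at 8 h. Its groups did not overlap and the rise was 15.2-fold at 4 h (edgeR adjusted p = 2.19e-42). HGO evm.TU.Ft5.742, the homogentisate dioxygenase of tyrosine breakdown, averaged 85.6 ± 2.48, 194 ± 2.92, 327 ± 3.17 and 265 ± 6.07 CPM at 0, 2, 4 and 8 h and rose 3.82-fold at 4 h (edgeR adjusted p = 3.80e-34). Of 17 branched-chain amino acid biosynthesis genes outside the degradation annotation 15 were tested, and 2, 1 and 3 were higher and 5, 11 and 6 lower at 2, 4 and 8 h. PGAAIR evm.TU.Ft4.151, a ketol-acid reductoisomerase of valine and isoleucine synthesis, averaged 384 ± 16.1, 366 ± 5.09, 318 ± 2.54 and 302 ± 8.01 CPM at 0, 2, 4 and 8 h, and the second such gene, evm.TU.Ft6.2369, averaged 199 ± 4.77, 166 ± 3.8043, 203 ± 5.46 and 208 ± 6.41 CPM at 0, 2, 4 and 8 h. Of 5 asparagine synthetase genes 4 were tested, and 1, 1 and 2 were higher and 2, 1 and 1 lower at 2, 4 and 8 h. ASN1 evm.TU.Ft2.2634, named for the dark-induced gene of Arabidopsis and picked here after its values were seen, averaged 1.35 ± 0.311, 0.502 ± 0.131, 0.909 ± 0.125 and 0.710 ± 0.194 CPM at 0, 2, 4 and 8 h and changed by -1.42 ± 0.342, -0.57 ± 0.319 and -0.93 ± 0.326 (edgeR adjusted p = 4.15e-04, 0.109 and 0.0109). ASN2 evm.TU.Ft8.3142 rose at 2 h by 0.71 and at 4 h by 0.39 on the log2 scale (edgeR adjusted p = 2.65e-17 and 3.25e-10). AS evm.TU.Ft3.3481 changed by -0.63 ± 0.137, -0.66 ± 0.138 and 0.65 ± 0.125 at 2, 4 and 8 h (edgeR adjusted p = 1.04e-04, 5.17e-05 and 1.67e-05).

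**Figure D4:**
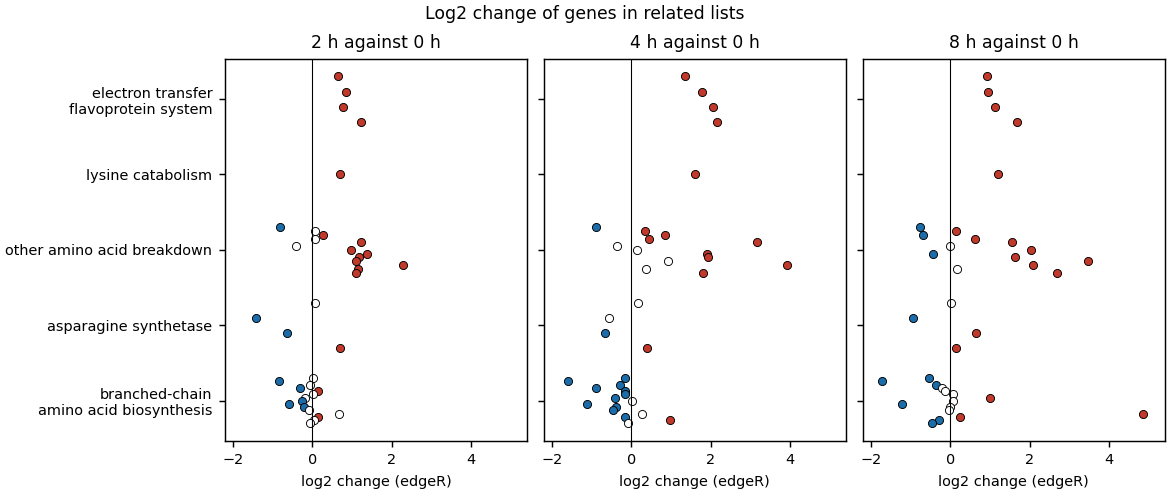
Log2 change against 0 h (horizontal axis) at 2, 4 and 8 h (panels) of the tested genes of the related lists, which run down the page; each point is 1 gene, red where called higher, blue where called lower and white where not called. All 4 genes of the electron transfer flavoprotein system are red at all 3 times, while most called biosynthesis genes are blue at 4 h.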

How the data were processed

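RNA from leaf and stem was sequenced from 12 libraries in 4 groups of 3. The table deposited by the authors gives whole-number counts of reads for each of 26750 genes. Their FPKM values, likewise deposited, each equalled the count over the library total and the coding length times a constant (largest relative deviation 1.72e-07). The submitters' processing notes name fastp, HISAT2, HTSeq and DESeq2 without version or role. The genome build is not given in the sources used here, and no reference sequence was used.

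Members were matched by pathway text and sorted into enzyme steps by symbol and description. The members and lists were chosen with earlier results of these data known. Counts were scaled by TMM (factors 0.936 to 1.10), filtered with filterByExpr (minimum count 10, minimum total 15, which removed 4687 genes) and fitted with edgeR 4.0.16 (glmQLFit, glmQLFTest; limma 3.58.1, R 4.3.3) in 1 fit of the 12 libraries, without covariates. Adjustment of p-values followed Benjamini and Hochberg over all 22063 tested genes at a false discovery rate of 0.05. Named genes were, per step, up to 3 members with the smallest p for any difference, the highest and lowest change at each time, members not tested and members never called against 0 h, and per related list up to 2 with the highest mean CPM. The genes of 1 enzyme stay in the counts and are not reported here singly. Further genes named are marked in the text as chosen after their values were seen. Alternatives were DESeq2 1.42.0, other scaling and filters, limma on log2 FPKM plus 1 or 0.1, a replicate block, fits of the compared groups alone, a 2-fold minimum, and each library left out in turn. The fit was checked on simulated data. Tables were made in pandas 2.3.3 and numpy 2.4.6 (Python 3.11.15) and plots in matplotlib 3.10.9.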

Additional observations from a re-analysis of the deposited data

Results flagged for a closer look

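Of the 63 tested members, 10 were called in opposite directions against 0 h at 2 of the PEG times while the difference between those times was itself called by edgeR, beside 10.5% of all 22063 tested genes. The contrasts against 0 h share the control libraries, and the difference between PEG times does not use them. Each value below is that difference as a log2 change, the later time against the earlier one.

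Genes lower early and higher at 8 h were LPD1 evm.TU.Ft7.4512, with 0.76 for 8 h against 4 h and 0.47 for 8 h against 2 h, and the E1 alpha gene evm.TU.Ft7.4833, with 1.18 and 0.72 for the same comparisons. ALDH3F1 evm.TU.Ft7.4684 was 1.16 higher at 8 h than at 2 h. ALDH3H1 evm.TU.Ft2.5467, lower at 2 h than at 0 h and higher later, differed by 0.74 for 4 h against 2 h and by 0.83 for 8 h against 2 h. Some of the calls against 0 h were lost under other settings. For LPD1 the 8 h call (log2 change 0.19) was lost without control replicate 1 (0.14) or 8 h replicate 2 (0.13). For the E1 alpha gene the 2 h call (-0.37) and the 8 h call (0.35) were near the threshold (edgeR adjusted p = 0.0428 and 0.0418) and were lost under 11 and 7 of the 21 other settings that gave a value, among them DESeq2's test and no low-count filter. For ALDH3H1 evm.TU.Ft2.5467 the 2 h call (-0.12) was lost with library-size scaling (-0.0977), in both filtered limma settings, and without control replicate 1 (-0.0822) or 2 h replicate 2 (-0.104).

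Genes higher at 4 h and lower at 8 h than at 0 h were BALDH evm.TU.Ft1.218, with -4.77 for 8 h against 4 h, HMGS evm.TU.Ft5.450 with -2.79, AAT1 evm.TU.Ft5.77 with -2.46, AGT2 evm.TU.Ft2.4892 with -2.196, ALDH2B7 evm.TU.Ft1.217 with -0.84 and the 3-hydroxyisobutyrate dehydrogenase gene evm.TU.Ft4.3369 with -0.40. The 8 h calls against 0 h of HMGS evm.TU.Ft5.450 (log2 change -0.197) and evm.TU.Ft4.3369 (-0.15) were lost with library-size scaling (-0.0457 and 0.00098) and in the 3 limma settings on FPKM. Against 2 h the level at 8 h differed by -1.04 for HMGS evm.TU.Ft5.450, -1.65 for AAT1 evm.TU.Ft5.77 and -0.96 for AGT2 evm.TU.Ft2.4892. ALDH2B7 evm.TU.Ft1.217, next to BALDH evm.TU.Ft1.218 in the numbering of chromosome 1, was also lower at 2 h than at 0 h and differed by 0.45 for 4 h against 2 h.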

How the results depend on the processing

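Across the settings other than a 2-fold minimum or a left-out library, members higher than at 0 h numbered 28 to 31 at 2 h, 36 to 41 at 4 h and 31 to 42 at 8 h, and members lower 10 to 14, 8 to 14 and 9 to 17. Between neighbouring times the ranges were 33 to 37 higher and 9 to 17 lower for 4 h against 2 h, and 17 to 28 higher and 24 to 33 lower for 8 h against 4 h. The 8 h count of lower members was 9 with limma on filtered log2(FPKM + 1) and 9 with a pseudocount of 0.1, where 58 members were tested. With a 2-fold minimum the counts of higher and lower members were 7 and 1 at 2 h, 21 and 7 at 4 h, 14 and 7 at 8 h, 11 and 3 for 4 h against 2 h, and 6 and 13 for 8 h against 4 h. Leaving out 1 library gave 29 to 30 higher and 10 to 13 lower at 2 h, 38 to 40 and 11 to 12 at 4 h, 32 to 36 and 12 to 15 at 8 h, 34 to 36 and 8 to 13 for 4 h against 2 h (8 without 4 h replicate 1), and 17 to 22 and 29 to 33 for 8 h against 4 h. Members that differed over the 4 groups numbered 60 to 62 when 1 library was left out and 51 to 64 under the other settings.

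Library-size scaling and limma on filtered log2(FPKM + 1), filtered log2(FPKM + 0.1) and unfiltered log2(FPKM + 1), none of which uses TMM, turned some signs. For the median log2 change of members, 8 h against 4 h, the values were 0.0586, 0.0158, 0.0163 and 0.0575 under these in that order. In the same comparison IBR3 evm.TU.Ft7.14 was 0.21, 0.20, 0.21 and 0.20, ECHIA evm.TU.Ft3.2347 was 0.0586, 0.0588, 0.0595 and 0.0588, and PGAAIR evm.TU.Ft4.151 was 0.14 in each. For 8 h against 0 h evm.TU.Ft4.3369 was 0.00098, 0.00087, 0.00089 and 0.00087, and AGT2 evm.TU.Ft1.1086 was 0.0853, 0.0868 and 0.0853 under the 3 limma settings; the cause was not tested. Of 2316 single-gene values under these and the other settings 2209 kept direction and side of the threshold, 47 lost and 41 gained a call and 19 turned sign. Of 2820 with a library left out 2779 kept both, 31 lost and 10 gained a call and 0 turned.

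The replicate numbers did not pair the libraries: deviations of same-numbered libraries from their group means correlated between -0.053 and 0.052. With the replicate block 30 members were higher and 12 lower at 2 h, 40 and 12 at 4 h, 36 and 14 at 8 h, and 61 of 63 differed over the 4 groups. The 4 untested members had at most 11 counts in a library, and 2 of them were called where no count filter was applied. HMGS evm.TU.Ft7.2064 was higher and ALDH2B7 evm.TU.Ft7.2134 lower at 4 h than at 0 h in edgeR without the filter (adjusted p = 0.0161 and 0.0125), in DESeq2 (0.0423 and 0.0332) and in unfiltered limma (0.0184 and 1.30e-04).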
